A study of Mus musculus with 8 samples.

Results

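The subunits and inhibitors of NF-kB, 10 genes, were followed in regulatory T cells (Treg), the Foxp3-expressing CD4 T cells that restrain other immune cells. These genes and the gene lists used below were chosen by name with earlier results of these data known, so the shares called in them are descriptions. The 10 genes comprise the 5 Rel family subunits (Nfkb1, Nfkb2, Rel, Rela and Relb) and 5 inhibitors (the IkB genes Nfkbia, Nfkbie, Nfkbid and Bcl3, and Tnfaip3, which encodes A20). They are 10 of 19826 genes in the deposited table, and all 10 were among the 13847 genes abundant enough to be tested. CD4+ YFP+ Treg were sorted from the spleen and the peripheral lymph nodes of untreated C57BL/6 mice, and polyadenylated RNA was sequenced. The WT group (4 libraries) had the genotype Foxp3 YFP-Cre/+ with Pdpk1 +/+, and the other 4 libraries, labelled Pdpk1 KO, had Foxp3 YFP-Cre/+ with Pdpk1 FL/FL, that is, loxP-flanked Pdpk1. Pdpk1 encodes PDK1, the kinase that activates AKT and related kinases. Both groups carry the same YFP-Cre allele, which is expressed from the Foxp3 gene and is heterozygous, so the sorted cells shared their animal with Treg that lack Cre. Age and sex were not given in the labels, nor whether a library stands for a single mouse. The p-values below therefore reflect only how far these libraries differ, which may be technical.

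NF-kB factors are dimers of Rel family proteins. In resting cells IkB proteins such as IkB-alpha (Nfkbia) and IkB-epsilon (Nfkbie) hold most dimers in the cytoplasm. Signals from the T cell receptor, from TNF receptors and from interleukin 1 family receptors activate the IKK kinases, IkB is degraded, and the dimers enter the nucleus, where they induce among others the genes of their own inhibitors. A separate group of IkB proteins, including IkB-NS (Nfkbid) and Bcl-3, acts in the nucleus on bound dimers. In Treg, c-Rel (Rel) and IkB-NS are known for their part in switching on Foxp3 during development, and PDK1 has been described as acting with protein kinase C theta between the T cell receptor and IKK.

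Of the 10 genes, 4 were lower in the libraries labelled Pdpk1 KO and 0 were higher. Nfkbie and Nfkbid fell the most, to 56.2% and 54.3% of the WT mean, followed by Bcl3 (74.0%) and Relb (79.8%). The share of members called lower, 40%, compares with 5.06% of all tested genes called lower and 9.47% called in either direction (limma, Benjamini-Hochberg adjusted p under 0.05 over all tested genes). At an unadjusted p under 0.05 in limma, 7 members were lower and 0 higher, against 12.2% and 10.8% of all tested genes. At the adjusted threshold, edgeR and DESeq2 each also called 0 higher. The values of the 2 groups did not overlap for the same 4 genes, against 15.3% of all tested genes. The median log2 change was -0.30 over the members and -0.0065 over all tested genes. Log2 changes are the mean log2(normalized count + 1) of the libraries labelled Pdpk1 KO less that of WT, and normalized counts are read counts divided by the authors' size factor for each library.

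**Figure D1:**
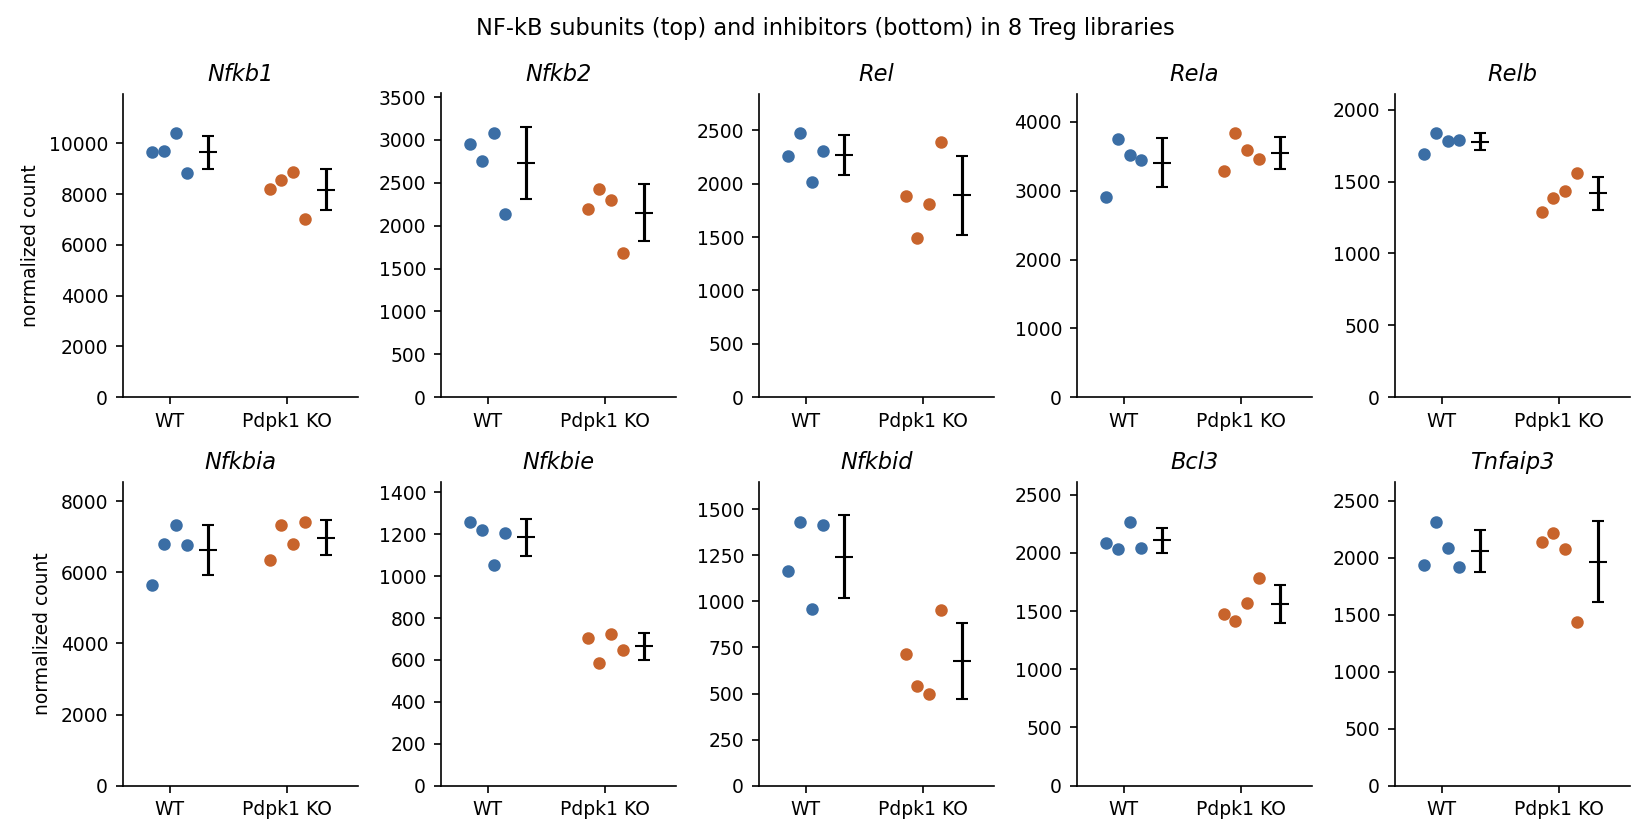
Normalized counts (vertical axes, from 0) of the 5 Rel family subunits (top) and 5 inhibitors (bottom) in 4 WT libraries (blue) and 4 libraries labelled Pdpk1 KO (orange), with replicates 1 to 4 from left to right and the mean ± SD in black. The groups are apart for Relb, Nfkbie, Nfkbid and Bcl3 and overlap for the other 6 genes.

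Among the subunits, only Relb passed the test over all genes. Relb, the partner of p52 in the alternative NF-kB pathway (ENSMUSG00000002983, GRCm38 chromosome 7, 19606217 to 19629438, minus strand), had normalized counts of 1694, 1838, 1785 and 1789 in WT replicates 1 to 4 and of 1287, 1387, 1437 and 1558 in the libraries labelled Pdpk1 KO, in the same order of replicates. Every WT library stood above every library of the other group. The means were 1776 ± 59.7 and 1417 ± 113 (SD, n = 4 each), a log2 change of -0.33 (95% interval -0.53 to -0.13, adjusted p = 0.0395). This call was close to the threshold. It was lost when any library except replicate 4 labelled Pdpk1 KO was left out, at adjusted p from 0.0504 to 0.101 and log2 changes from -0.35 to -0.28.

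The other 4 subunits were not past the threshold. Nfkb1, which encodes p105 and its product p50 (ENSMUSG00000028163, chromosome 3, 135584655 to 135691547, minus strand), had 9660, 9705, 10398 and 8813 normalized counts in WT and 8199, 8571, 8885 and 7019 in the libraries labelled Pdpk1 KO. Only WT replicate 4, the lowest of its group, fell within the range of the other group. The log2 change was -0.24 (95% interval -0.45 to -0.03, adjusted p = 0.147). After quantile normalization Nfkb1 passed the threshold at a log2 change of -0.30 (adjusted p = 0.0213).

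Nfkb2, the gene of p100 and p52 (ENSMUSG00000025225, chromosome 19, 46304320 to 46312385, plus strand), had 2948, 2758, 3080 and 2142 normalized counts in WT and 2200, 2428, 2303 and 1679 in the libraries labelled Pdpk1 KO. Replicate 4 was the lowest library in both groups. The log2 change was -0.34 (95% interval -0.63 to -0.06, adjusted p = 0.128), and without WT replicate 4 it was -0.46 (adjusted p = 0.0470), while without replicate 4 labelled Pdpk1 KO it was -0.23 (adjusted p = 0.296). Exons of Nfkb2 overlap those of Psd and AC114539.1 on the opposite strand by 299 and 531 bases, and without a stated strand setting their reads cannot be told apart. The mean normalized counts of those 2 genes were 453 and 265.

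Rel, the gene of c-Rel (ENSMUSG00000020275, chromosome 11, 23736847 to 23770970, minus strand), had 2263, 2473, 2017 and 2310 normalized counts in WT and 1884, 1491, 1806 and 2387 in the libraries labelled Pdpk1 KO. Of the second group, 3 libraries lay below all WT libraries, while replicate 4 lay above 3 of them. The log2 change was -0.28 (95% interval -0.55 to -0.01, adjusted p = 0.206). Without that library it was -0.39 (adjusted p = 0.0450), without replicate 2 labelled Pdpk1 KO it was -0.17 (adjusted p = 0.474), and without the 3 libraries richest in macrophage markers (values below) it was -0.048 (adjusted p = 0.927).

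Rela encodes p65, the main activating subunit of the classical pathway (ENSMUSG00000024927, chromosome 19, 5637483 to 5648130, plus strand). Its normalized counts were 2906, 3751, 3516 and 3444 in WT and 3282, 3836, 3597 and 3465 in the libraries labelled Pdpk1 KO. The groups overlapped almost fully, with a log2 change of 0.06 (95% interval -0.15 to 0.27, adjusted p = 0.766).

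Of the 5 inhibitors, 3 fell. The most reproducible fall was in Nfkbie, whose product IkB-epsilon holds c-Rel and p65 dimers in the cytoplasm (ENSMUSG00000023947, chromosome 17, 45555703 to 45563169, plus strand). Its normalized counts were 1260, 1220, 1055 and 1204 in WT and 706, 584, 725 and 647 in the libraries labelled Pdpk1 KO. The lowest WT library was well above the highest library of the other group. The means were 1185 ± 89.7 and 665 ± 63.7 (SD, n = 4 each), a log2 change of -0.83 (95% interval -1.07 to -0.59, adjusted p = 0.00023). Leaving out each library in turn gave log2 changes from -0.89 to -0.77, all past the threshold.

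Nfkbid, the gene of IkB-NS (ENSMUSG00000036931, chromosome 7, 30421732 to 30428746, plus strand), had 1167, 1433, 961 and 1414 normalized counts in WT and 712, 541, 495 and 953 in the libraries labelled Pdpk1 KO. Both groups were widely spread, and the highest library of the second group, replicate 4, nearly reached the lowest WT library. The means were 1244 ± 224 and 675 ± 207 (SD, n = 4 each), a log2 change of -0.91 (95% interval -1.31 to -0.51, adjusted p = 0.00579). Its 2 lowest libraries, replicates 2 and 3 labelled Pdpk1 KO, were also the highest of all 8 in macrophage markers (values below). With these and WT replicate 2 left out, which are the 3 libraries richest in those markers, the log2 change was -0.50 and not past the threshold (adjusted p = 0.234).

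Bcl3, a nuclear IkB protein that binds p50 and p52 homodimers (ENSMUSG00000053175, chromosome 7, 19808462 to 19822770, minus strand), had 2088, 2034, 2268 and 2038 normalized counts in WT and 1471, 1416, 1568 and 1783 in the libraries labelled Pdpk1 KO. The WT libraries lay close together above all of the others. The means were 2107 ± 111 and 1560 ± 162 (SD, n = 4 each), a log2 change of -0.44 (95% interval -0.65 to -0.23, adjusted p = 0.0100). Without the 3 libraries richest in macrophage markers it was -0.39 (adjusted p = 0.199). Bcl3 and Relb are neighbours on chromosome 7, 179023 bases apart. Of the 5 tested genes that lie between them, Clptm1, Apoe, Tomm40, Nectin2 and Bcam, 1 was called higher (Apoe, at a log2 change of 2.12) and 0 lower.

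Nfkbia and Tnfaip3, which are textbook feedback genes of NF-kB, were not past the threshold. Nfkbia, the gene of IkB-alpha (ENSMUSG00000021025, chromosome 12, 55489410 to 55492647, minus strand), had 5652, 6796, 7330 and 6775 normalized counts in WT and 6354, 7332, 6795 and 7425 in the libraries labelled Pdpk1 KO, which overlap. The log2 change was 0.08 (95% interval -0.14 to 0.29, adjusted p = 0.713). Tnfaip3 encodes A20, a ubiquitin-editing enzyme that switches off signalling to IKK (ENSMUSG00000019850, chromosome 10, 19000910 to 19015657, minus strand). It had 1936, 2317, 2081 and 1917 normalized counts in WT and 2135, 2214, 2073 and 1438 in the libraries labelled Pdpk1 KO. Replicate 4 of the second group was low and its other libraries lay within the WT range. The log2 change was -0.09 (95% interval -0.36 to 0.19, adjusted p = 0.755), and 0.06 without that library (adjusted p = 0.797).

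**Figure D2:**
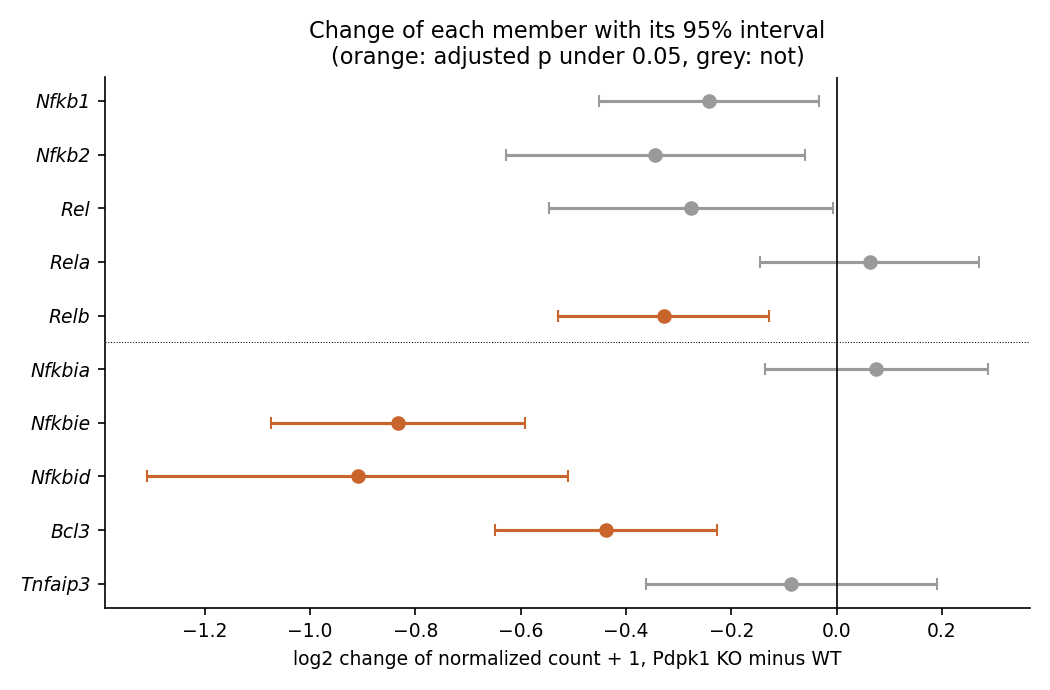
Log2 change of each member (horizontal axis, libraries labelled Pdpk1 KO minus WT) with its 95% interval, subunits above the dotted line and inhibitors below it. Orange marks the 4 genes with an adjusted p under 0.05, and the intervals of Rela, Nfkbia and Tnfaip3 include 0.

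Each of the 3 inhibitors that fell can be read against Nfkbia within the same library. Nfkbie stood at 22.3, 17.9, 14.4 and 17.8% of the Nfkbia count in WT replicates 1 to 4 and at 11.1, 7.97, 10.7 and 8.71% in the other 4 libraries, in the same order. The Nfkbid to Nfkbia ratio went from between 13.1 and 21.1% to between 7.29 and 12.8%, and the Bcl3 to Nfkbia ratio from between 29.9 and 36.9% to between 19.3 and 24.01%. The Relb to Rela ratio went from between 49.0 and 58.3% to between 36.2 and 45.0%. The log2 differences of these ratios were -0.91, -0.98, -0.51 and -0.39 in that order. The 4 pairs set a gene that fell over one that was not past the threshold and were chosen with those values known, so they are given as a description with no test.

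**Figure D3:**
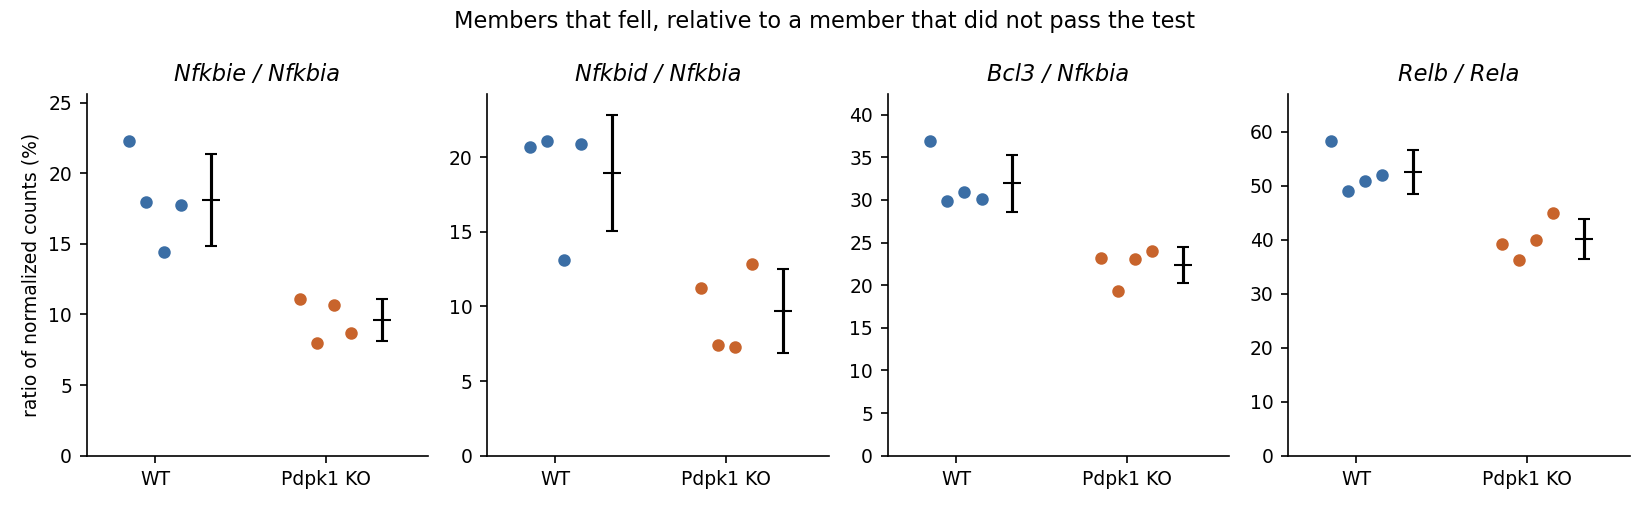
Ratio of normalized counts in percent (vertical axes, from 0) of Nfkbie, Nfkbid and Bcl3 to Nfkbia and of Relb to Rela in each of 4 WT libraries (blue) and 4 libraries labelled Pdpk1 KO (orange), with the mean ± SD in black. All 4 libraries labelled Pdpk1 KO lie below all 4 WT libraries in each panel.

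Levels of different genes were compared per kilobase of annotated exon, joined over all transcripts of a gene. This length was 12.061 kilobases for Nfkb1 and 3.072 for Rela. Before division Nfkb1 had the higher WT mean, 9644 normalized counts against 3404, so the order below depends on that length. Per kilobase, Nfkbia was the most abundant member in WT, at 4123 ± 438 normalized counts (SD, n = 4). Rela was the most abundant subunit on this scale, at 1108 ± 116. Bcl3 (851 ± 44.6) and Nfkb1 (800 ± 53.8) followed and overlapped, and so did Nfkb2 (596 ± 90.5), Nfkbid (530 ± 95.5) and Relb (457 ± 15.4), each with its neighbour in that order. Nfkbie stood at 389 ± 29.5, apart from both of its neighbours, while Rel (303 ± 25.3) and Tnfaip3 (285 ± 25.6) overlapped at the lower end. In the libraries labelled Pdpk1 KO Nfkbia (4333 ± 310) and Rela (1154 ± 75.9) remained the highest and Nfkbie (219 ± 20.9) became the lowest, overlapping with Rel (253 ± 49.7).

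As shares of the 5 subunits' summed level per kilobase, Rela made up 30.2 to 36.3% in WT and 38.0 to 41.0% in the libraries labelled Pdpk1 KO, while Nfkb1 (23.4 to 25.6% and 20.8 to 24.4%), Relb (13.5 to 14.9% and 11.7 to 14.3%), Nfkb2 (15.1 to 20.6% and 13.1 to 17.4%) and Rel (7.93 to 10.02% and 6.56 to 11.4%) overlapped between the groups. Within the 4 IkB genes among the members, Nfkbia made up 66.7 to 73.1% in WT and 77.5 to 82.1% in the libraries labelled Pdpk1 KO. The IkB genes Nfkbib and Nfkbiz, counted below among the other negative regulators, were outside this sum. Their log2 changes were -0.07 and 0.15, neither past the threshold (adjusted p = 0.756 and 0.607). Shares of a sum that included them would be smaller. Nfkbie went from between 5.57 and 7.86% to between 3.46 and 4.57%, and Bcl3 from between 13.6 and 16.0% to between 10.3 and 12.1%. The shares of Nfkbid, 6.58 to 10.1% and 3.98 to 6.83%, overlapped. A share of a fixed sum can rise because the others fall. Rela and Nfkbia themselves had log2 changes of 0.06 and 0.08, neither past the threshold. All of these shares depend on the exon lengths above. They are descriptions of RNA in bulk samples, where fewer cells with a transcript and less RNA per cell cannot be told apart.

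Promoters of the inhibitors are shown because their genes split into 3 that fell and 2 that did not pass the test, while NF-kB is known to act on several of them. Promoter sequences were taken from RefSeq (GRCm38.p6), which matched 8 of the 10 members with 13 windows of 300 bases, 250 before and 50 after an annotated start. Nfkb1 and Relb had no entry. GGNNTTTCC and the kB consensus of 10 bases were searched on both strands, and 1 stretch can match both. Capitals mark matches of either motif, and only bases before the start that no GENCODE M21 exon covers are printed, 5′ to 3′ on the gene's strand.

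Nfkbie (chr17:45555450-45555699, plus strand): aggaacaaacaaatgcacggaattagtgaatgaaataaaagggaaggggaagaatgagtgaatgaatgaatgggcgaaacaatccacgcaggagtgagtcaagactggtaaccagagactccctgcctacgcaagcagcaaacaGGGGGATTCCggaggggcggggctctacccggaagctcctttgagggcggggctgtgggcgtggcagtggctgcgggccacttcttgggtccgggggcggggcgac
Nfkbid, the second of 3 starts (chr7:30422156-30422405, plus strand): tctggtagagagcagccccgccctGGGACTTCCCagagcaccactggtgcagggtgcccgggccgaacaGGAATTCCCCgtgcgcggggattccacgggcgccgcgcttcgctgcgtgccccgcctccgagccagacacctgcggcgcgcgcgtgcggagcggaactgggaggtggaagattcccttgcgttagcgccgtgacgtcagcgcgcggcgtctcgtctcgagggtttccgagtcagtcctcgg
Bcl3 (chr7:19822771-19823005, minus strand): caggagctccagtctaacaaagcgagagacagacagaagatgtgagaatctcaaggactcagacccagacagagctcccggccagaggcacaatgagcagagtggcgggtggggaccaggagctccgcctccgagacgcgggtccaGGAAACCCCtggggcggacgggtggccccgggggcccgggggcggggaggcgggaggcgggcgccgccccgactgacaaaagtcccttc
Nfkbia (chr12:55492648-55492897, minus strand): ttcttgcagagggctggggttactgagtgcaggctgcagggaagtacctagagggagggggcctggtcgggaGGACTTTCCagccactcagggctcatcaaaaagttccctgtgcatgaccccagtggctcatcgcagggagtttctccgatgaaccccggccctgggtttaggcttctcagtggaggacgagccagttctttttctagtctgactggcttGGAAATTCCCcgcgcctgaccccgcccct
Tnfaip3, the upstream of 2 starts (chr10:19015411-19015547, minus strand): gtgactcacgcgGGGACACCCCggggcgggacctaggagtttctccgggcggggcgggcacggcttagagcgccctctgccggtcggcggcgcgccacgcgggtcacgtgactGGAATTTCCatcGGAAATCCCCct

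Of the 13 member windows, 9 held the kB consensus and 7 held GGNNTTTCC, against 8.46% and 5.82% of all 32851 windows. Of these, 3 windows under each count belong to Nfkb2, whose windows partly overlap, so that 1 site is counted in 2 of them. Of the 8 members with a window, 7 had the consensus in at least 1 window (all except Rela) and 5 had GGNNTTTCC. Both kinds of inhibitor gene held matches: the 3 that fell (Nfkbie, Nfkbid and Bcl3) and the 2 that were not past the threshold (Nfkbia and Tnfaip3) each had the consensus, that of Bcl3 lying 3 bases after its start and so not printed. GGNNTTTCC occurred in the windows of Nfkbia, Tnfaip3 and Bcl3 and in none of those of Nfkbie and Nfkbid. A match is a stretch of letters and not a measured binding site.

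Upstream kinases and adaptors, a list that includes the IKK genes themselves, were mostly not past the threshold. Of 26 genes listed and tested, 2 rose, 0 fell and 24 did not pass the test, with a median log2 change of 0.03. These shares compare with 4.41% of all tested genes called higher and 5.06% called lower. At an unadjusted p under 0.05, 5 were higher and 2 lower in limma, against 10.8% and 12.2% of all tested genes. Traf6, the ubiquitin ligase downstream of interleukin 1 and Toll-like receptors, rose from 1669 ± 163 to 2620 ± 235 normalized counts (SD, n = 4 each), a log2 change of 0.65 (adjusted p = 0.000753). Its values were between 1532 and 1869 in WT and between 2428 and 2914 in the libraries labelled Pdpk1 KO. Prkcq, the gene of protein kinase C theta, rose from 9124 ± 566 to 11990 ± 618, a log2 change of 0.39 (adjusted p = 0.0105). Without the 3 libraries richest in macrophage markers Traf6 kept its call at 0.73 (adjusted p = 0.0172), while Prkcq was at 0.35 (adjusted p = 0.282). Malt1, the gene of a protease in T cell receptor signalling, was the gene that DESeq2 called lower in this list (limma log2 change -0.31, adjusted p = 0.0667), and edgeR called 0 lower.

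Receptors that signal to NF-kB moved down where they moved. Of 18 listed genes 15 were tested, of which 6 fell (40%, against 5.06% of all tested genes), 0 rose and 9 did not pass the test, with a median log2 change of -0.37. No receptor was higher at an unadjusted p under 0.05 in limma either (0 of 15). At the adjusted threshold, edgeR and DESeq2 each called 0 receptors higher. Il1rl1, the gene of the alarmin receptor ST2, fell from between 233 and 457 normalized counts in WT to between 21.4 and 43.8 in the libraries labelled Pdpk1 KO, a log2 change of -3.50 (adjusted p = 3.49e-06). Both chains of the interleukin 18 receptor fell, Il18r1 by 1.38 and Il18rap by 2.78 on the log2 scale (adjusted p = 6.91e-07 and 0.00171). The costimulatory TNF receptor genes Tnfrsf9 (4-1BB), Tnfrsf4 (OX40) and Tnfrsf1b (TNFR2) fell by 1.26, 0.91 and 0.87 (adjusted p = 2.41e-05, 0.000627 and 3.85e-05). The groups did not overlap for 7 of the 15 tested receptors, these 6 among them, against 15.3% of all tested genes. Cd27 and Cd28 stood at log2 changes of -0.02 and 0.0025 (adjusted p = 0.929 and 0.995). Il1r1 missed the filter because 3 rather than 4 libraries reached a normalized count of 10, with 7.30 to 59.7 normalized counts in WT, 5.48 in replicate 2 labelled Pdpk1 KO and 0 in its other 3 libraries, where a count of 0 allows up to 3 reads, or 2.56 to 3.37 normalized counts, for counting error. With no filter on low values Il1r1 was called lower (adjusted p = 0.00500) and 7 receptors were lower.

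Among the other negative regulators, 3 of 16 tested genes fell (18.75%, against 5.06% of all tested genes), 1 rose (6.25%, against 4.41%) and 12 did not pass the test, with a median log2 change of -0.16. Traf3, which restrains the alternative pathway, fell from 2360 ± 193 to 1769 ± 167 normalized counts (SD, n = 4 each), a log2 change of -0.42 (adjusted p = 0.0154). Zc3h12a, the gene of the RNase Regnase-1, and Tnip2, the gene of an A20-binding protein, fell by 0.51 and 0.62 on the log2 scale (adjusted p = 0.0271 and 0.0273). Tax1bp1, an A20 adaptor gene, rose by a log2 change of 0.40 (adjusted p = 0.00606). None of the 4 calls was kept without the 3 libraries richest in macrophage markers (adjusted p from 0.118 to 0.344), at log2 changes of -0.31, -0.42, -0.47 and 0.43. The count of falls was 0 without WT replicate 2 or without replicate 2 labelled Pdpk1 KO, 1 without WT replicate 4 or replicate 3 labelled Pdpk1 KO, and 2 without WT replicate 1 or replicate 4 labelled Pdpk1 KO.

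**Figure D4:**
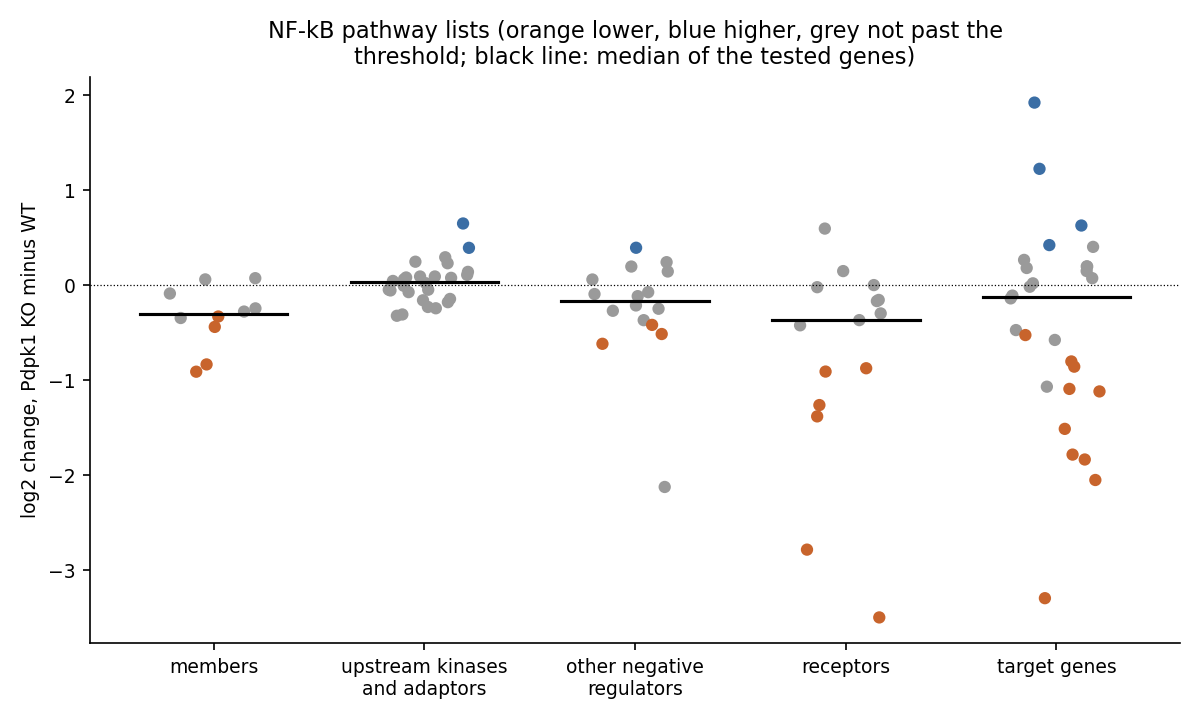
Log2 change (vertical axis, libraries labelled Pdpk1 KO minus WT) of every tested gene in the 10 members and in 4 lists of the pathway, with the median of each as a black line. Orange genes were called lower, blue genes higher and grey genes were not past the threshold.

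Target genes of NF-kB included calls in both directions. Of 34 listed genes 28 were tested, of which 10 fell (35.7%, against 5.06% of all tested genes), 4 rose (14.3%, against 4.41%) and 14 did not pass the test, with a median log2 change of -0.12. The survival gene Bcl2l1, which encodes Bcl-xL, had 1121 to 1376 normalized counts in WT and 469 to 692 in the libraries labelled Pdpk1 KO, a log2 change of -1.12 (adjusted p = 7.01e-05). Bcl2a1d of the same family fell by 1.83 on the log2 scale (adjusted p = 0.000353), but it has near-identical copies among which reads may be divided. Cd83, a membrane protein gene, fell by 1.51 and Ebi3, which encodes a subunit of interleukins 27 and 35, by 2.05 (adjusted p = 7.02e-06 and 0.000294). On the same scale the transcription factor gene Myc rose by 1.23 and the interleukin 2 receptor gene Il2ra by 0.63 (adjusted p = 1.27e-06 and 0.00114). Without the 3 libraries richest in macrophage markers the counts were 5 lower and 2 higher. Vcam1 was among the 4 called higher, at a log2 change of 1.92 (adjusted p = 0.0212), and its 2 highest libraries, with 1110 and 825 normalized counts, were replicates 2 and 3 labelled Pdpk1 KO, which were also highest in macrophage markers.

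Depth, the labels and other cell types were examined once for all of these results. Recovered reads ranged from 17448095 to 26299577 per library. Pdpk1 was not detectably lower over the whole gene (log2 change -0.17, 95% interval -0.45 to 0.11, adjusted p = 0.491), and since the sources used here do not name the exons between the loxP sites, this does not check the labels. All 8 T cell and Treg markers were present in every library. Of these, Ikzf2 (log2 change -1.13, adjusted p = 4.45e-06) and Trac (-0.68, adjusted p = 0.0118) were lower and Il2ra was higher (0.63). The other 5 were not past the threshold: Foxp3 (0.08), Cd3d (-0.10), Cd4 (-0.22), Cd3e (-0.39) and Cd3g (-0.44). Cd3e and Cd3g were close to it (adjusted p = 0.0545 and 0.0512). The log2 change was negative for 6 of the 8, with a median of -0.31, near the members' median of -0.30. Of 18 tested macrophage markers (22 listed) 7 were higher and 2 lower, Cybb and Axl, 16 had a positive log2 change, and the median log2 change was 2.24. The mean log2 level of these markers was 3.63, 6.74, 4.73 and 5.09 in WT replicates 1 to 4 and 6.06, 7.76, 7.46 and 6.17 in the other group, so that every library labelled Pdpk1 KO was above 3 of the 4 WT libraries. The summed level of the list, to which Axl and Cybb gave the most in WT, was 2171 to 3540 normalized counts in WT and 2263 to 6093 in the libraries labelled Pdpk1 KO, with the highest values in replicates 2 and 3. Of 10 B cell markers, which matter here since B cells express the same inhibitors, Ebf1 was not listed in the table and Ms4a1 had 14 reads over all libraries. Of the 3 that could be tested, 2 were lower, Cd79b (-1.17) and Cd22 (-2.69). Cd79a went the other way, at a log2 change of 0.73 that was not past the threshold (adjusted p = 0.258). The list's summed level was 443 to 574 in WT and 172 to 311 in the libraries labelled Pdpk1 KO. Cd79b gave the most to this sum, with means of 367 normalized counts in WT and 165 in the other group. The part of macrophage and B cell RNA in the members' values was not tested beyond the fits that leave out libraries or add the marker level. In those fits Nfkbie had a log2 change of -0.80 with the mean macrophage marker level as a covariate (adjusted p = 0.0102) and -0.79 with those 3 libraries left out (adjusted p = 0.0174). With that covariate Nfkbid was at -0.82, Bcl3 at -0.37 and Relb at -0.37, and none of these 3 was past the threshold (adjusted p = 0.102, 0.183 and 0.159).

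**Figure D5:**
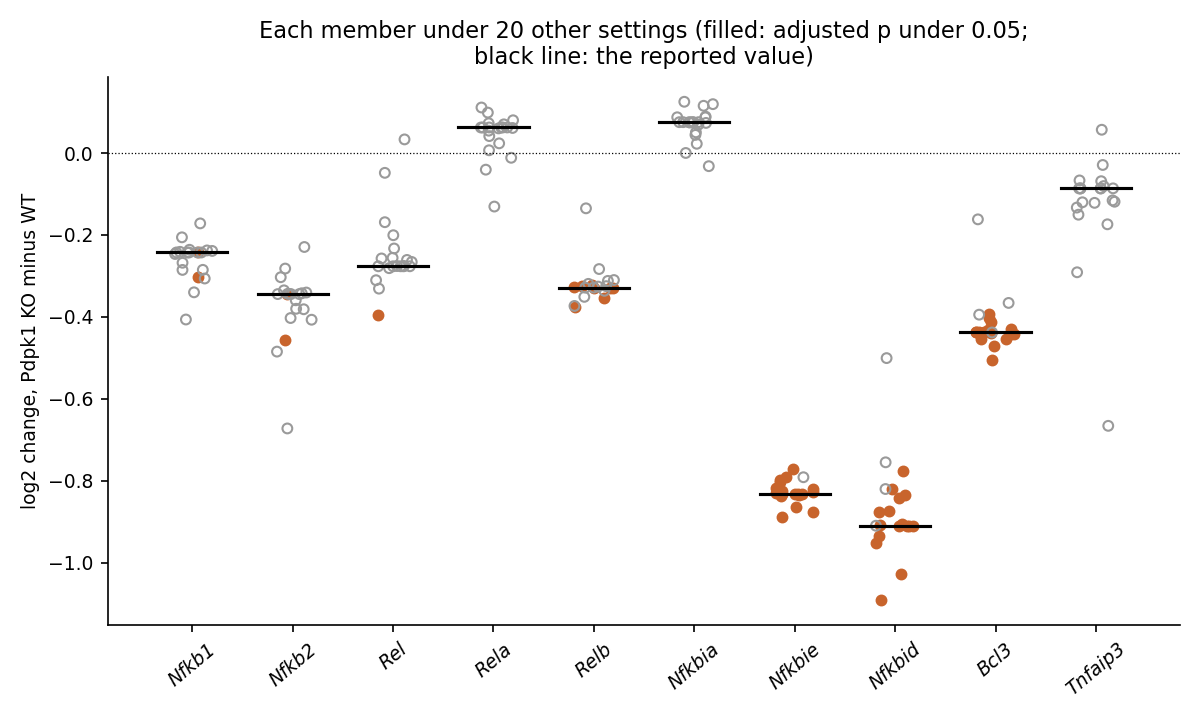
Log2 change of each member (vertical axis) under 20 other settings, filled where the adjusted p was under 0.05, with the reported value as a black line. Nfkbie was past the threshold in 19 settings, Nfkbid and Bcl3 in 16 each and Relb in 8.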

How the data were processed

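The deposited table holds 1 signal value per gene and library, which the authors made by dividing read counts by a size factor of each library with DESeq2. Per the submitters' processing notes, the build was GRCm38 and the tools were featureCounts, Subread 2.0.1, STAR 2.7.6a, DESeq2 1.21, Trimmomatic 0.39 and SAMtools 1.11. The strand setting, the annotation release and the handling of reads shared by near-identical genes are not given in the sources used here. All values (100%) were whole multiples of the value of 1 read (tolerance 0.001), so reads and depth were recovered. Symbols and positions came from GENCODE M21 (19785 of 19826 genes matched).

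Genes with a normalized count of 10 or more in at least 4 of 8 libraries were tested (13847, with 5979 removed). Log2(normalized count + 1) was compared with limma 3.58.1 in R 4.3.3 (lmFit, eBayes with trend), two-sided, without a replicate term, with Benjamini-Hochberg adjustment over all tested genes and a threshold of 0.05. This scale understates changes of low genes. An adjusted p with no other tool named is limma's. Alternatives were 2 other pseudocounts, 2 other filters, no trend, quantile normalization, edgeR 4.0.16 and DESeq2 1.42.0 on recovered reads, a replicate block, marker covariates and left-out libraries. The steps were tested on simulated counts. Intervals cover the spread between libraries, and floors cover counting error only, since PCR duplicates are not marked.

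The members and gene lists were chosen with earlier results of these data known. Of each pathway list, the called genes with the smallest adjusted p were named, up to 6. Malt1, Cd27, Cd28, Il1r1, Vcam1, Apoe, Nfkbib, Nfkbiz and the cell type markers were named after their values were seen.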

Additional observations from a re-analysis of the deposited data

Results flagged for a closer look

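Among the receptors, 1 library stood apart from the rest of its group. Il18r1 had a normalized count of 772.4 in replicate 3 labelled Pdpk1 KO, and between 711.7 and 721.0 in the other 3 libraries of that group. Its gap to the nearest library was 0.847 of the group's range, above Dixon's critical value for 4 samples. In all, 56 groups of 4 over 28 genes were examined in this way, of which chance alone would mark about 1 in 20, and 0 of the 10 NF-kB subunits and inhibitors were marked. Every WT library stood above every library labelled Pdpk1 KO for this gene.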

How the results depend on the processing

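Of the 4 members called lower, Nfkbie kept its call under 19 of 20 alternatives, Nfkbid and Bcl3 under 16 each and Relb under 8, and all 4 kept their direction under all 20. The number of members called lower was 1 without the eBayes trend, 1 with the macrophage marker covariate, 1 without the 3 libraries highest in macrophage markers (3 WT against 2 others) and 0 with the B cell marker covariate. It was 3 to 5 when each library was left out. The B cell marker level was the mean log2 level of Cd79a, Cd79b and Cd22. It did not overlap between the groups, so that covariate cannot be told apart from the group. With it Nfkbie was at -0.79 (adjusted p = 0.298) and Rel reversed to 0.0333. Other reversals, all among members not past the threshold, were Rela (-0.13 with the macrophage covariate, -0.0406 with the B cell covariate, and -0.0116 to 0.111 when each library was left out, negative without WT replicate 1), Nfkbia (-0.0320 with the macrophage covariate) and Tnfaip3 (-0.150 to 0.0568 when each library was left out, positive without replicate 4 labelled Pdpk1 KO). The cause was not tested.

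Over all genes, 611 were higher and 700 lower. These counts were 288 and 442 without the trend, 224 and 292 with the macrophage covariate, 7 and 25 with the B cell covariate, 167 and 305 without the 3 libraries, and 389 to 588 and 495 to 724 when each library was left out. Of upstream genes, 1 was higher with the macrophage covariate, 1 without the 3 libraries and 0 with the B cell covariate, and 1 was lower after quantile normalization, 1 with DESeq2 and 0 to 1 when each library was left out. Of negative regulators, 0 were higher and 0 lower with either covariate or without the 3 libraries, 1 was lower without the trend, and 0 to 4 when each library was left out. Of receptors, 1 was lower with the B cell covariate. Of targets, 2 were higher with the macrophage covariate, 2 without the 3 libraries and 0 with the B cell covariate, and 0 were lower with the B cell covariate and 5 without the 3 libraries.

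With a replicate block, 1243 genes were higher and 1292 lower, upstream genes were 5 higher and 2 lower, negative regulators 2 higher and 5 lower, and 6 members were lower, adding Nfkb1 (adjusted p = 0.0105) and Nfkb2 (0.00353). Same-numbered libraries correlated at 0.217, 0.092, 0.048 and 0.113 in their deviations from the group means, all positive. Differently numbered libraries correlated at -0.156 to 0.109, and most of these values were negative. The highest was that of replicate 2 labelled Pdpk1 KO with WT replicate 3. Whether the numbers mark pairs is not settled by these values, and the reported fit, without a replicate term, would leave any pairing out. Every member had a normalized count of at least 495 in every library, so counting error is small beside the spread between libraries.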
